A study of Homo sapiens with 72 samples.

Results

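Gene expression in bystander fibroblasts was compared with that in sham-irradiated fibroblasts 1 hour after exposure, on 4 bystander and 4 control arrays out of the 72 arrays of the series. IMR-90, a strain of normal human lung fibroblasts used at an early passage, was grown in dishes with 2 mylar bases, an outer thin one that α-particles cross and an inner one that shields the cells on it. Irradiated cells on the outer base received 0.5 Gy of α-particles, and bystander cells on the inner base received none. The bystander cells shared the medium of the irradiated cells and lay in a contiguous layer with them. Control dishes were handled in the same way without exposure. The groups were sampled at 6 times in 4 independent experiments, and every sample was 1 labelled RNA on a 1-colour whole-genome oligonucleotide array. The 8 arrays were chosen by their labels alone (bystander or control, 1 h, replicates 1 to 4), and a shared replicate number was read as 1 experiment, so that each bystander array was set against the control array of the same number. The 4 irradiated arrays at 1 h entered the same model to share the estimate of the spread, and serve as a second reference further on. The cells are 1 strain, so p-values measure the spread between 4 experiments on the same cells and not between donors.

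Cells that radiation did not hit, but that share a dish or medium with hit cells, also respond, which is called the bystander effect. Signals between fibroblasts are known to pass through gap junctions and through the medium, and among those studied are reactive oxygen species, prostaglandins and cytokines that act through NF-kB. An hour after such a stimulus, the transcripts usually examined first are immediate early transcription factors, inflammatory ligands and stress genes such as metallothioneins and heat shock proteins. These are the groups into which the results are ordered below, followed by matrix, cytoskeletal and cell cycle genes.

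At 1 h no transcript differed between bystander and control cells at the adjusted p of 0.1 used as the limit. Of 25238 probes tested (12698 genes with a symbol), 0 were called by limma with Benjamini-Hochberg adjustment, which is 0% of the probes, and the smallest adjusted p was 0.343. At an unadjusted limma p of 0.05, 1899 probes were higher in bystander cells (7.52%) and 1723 were lower (6.83%). A split by direction depends on the scaling between arrays and on the values used, since the same count was 3928 higher and 304 lower with no scaling and 2452 higher and 1054 lower with the authors' own table of log2 values brought to the same 75th percentile. Without scaling the median log2 ratio of all probes was 0.16, against -0.03 after scaling, and all ratios below are on the scaled values and so relative to that median. Because no gene passed the test, values are given below as measurements, with counts set beside the share of all genes that reached the same mark.

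The interval around each ratio limits what could have been seen. The 95% interval of a bystander to control ratio had a median half-width of 0.37 on the log2 scale, from 0.26 at the 10th to 0.58 at the 90th percentile of probes. An average difference of more than 2-fold was measured for 85 probes, 23 higher and 62 lower in bystander cells, and in 57 of them the sign was the same in 4 of 4 experiments. For a single gene, an exact two-sided sign-flip test over 4 pairs cannot give a p below 0.125.

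One control array stood apart from the other 11 arrays at 1 h. In control 4, 3469 probes lay more than 2-fold from the median of the 12 arrays, whereas the next highest numbers were 939 in bystander 3 and 936 in control 3, and the lowest was 110 in bystander 1. Control 4 was also the dimmest array, with a 75th percentile of 10.09 on the log2 intensity scale, and the next were irradiated 2 at 10.29, control 2 at 10.31 and bystander 2 at 10.33. The share of spots well above background, 71.1% in control 4, was close to the 71.2% of control 3 and the 71.4% of bystander 2. The 4 experiments also differed in their number of large differences. More than 2-fold differences between bystander and control cells were found for 548 probes in experiment 1, 350 in experiment 2, 1013 in experiment 3 and 4388 in experiment 4 (2.18%, 1.39%, 4.02% and 17.4%). Irradiated against control cells, which use the same control arrays, gave 736, 1059, 910 and 4843 probes in the same order. Bystander and irradiated cells of experiment 4 differed by more than 2-fold for only 47 probes, against 187, 520 and 408 in experiments 1 to 3. Lists, and genes whose ratio moved by more than 1.5 times, are therefore also given without experiment 4.

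**Figure D1:**
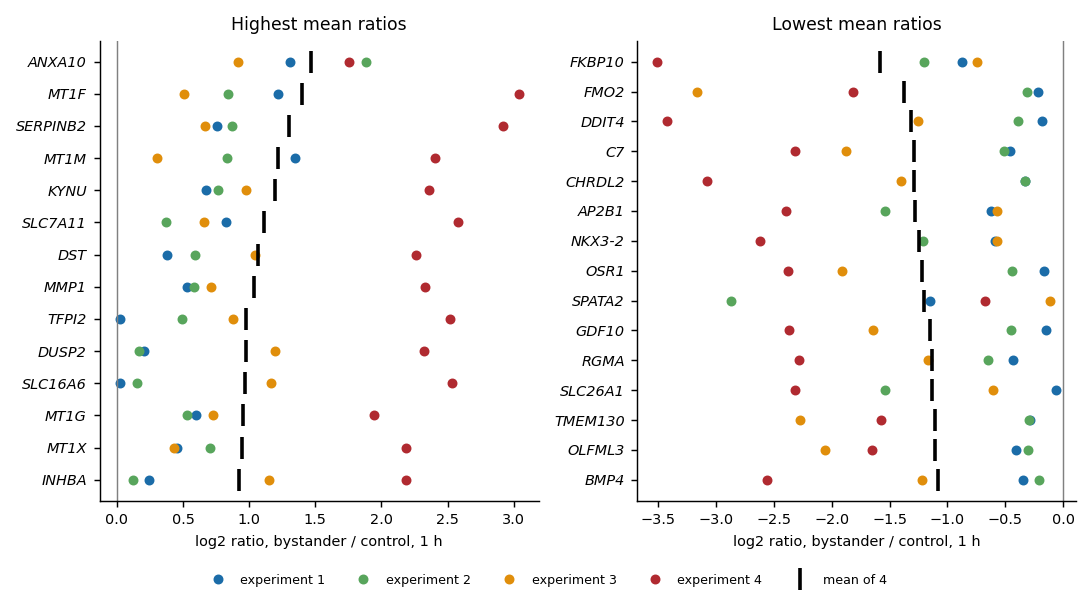
Log2 ratios of bystander to control intensity at 1 h in each of the 4 experiments (points) with their mean (vertical bars) for genes from among the 15 with the highest and the 15 with the lowest mean ratio, of those with the same sign in 4 of 4 experiments and an unadjusted p below 0.05. Experiment 4 lay farthest from 0 for most of these genes, for example at 3.04 for MT1F and -3.51 for FKBP10, whereas ANXA10, not well above background on controls 1 and 2, was between 0.91 and 1.88.

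Metallothioneins, small cysteine-rich proteins that bind zinc and copper and are induced by metals and oxidative stress, were the group that stood highest in bystander cells. All 10 metallothionein genes had a mean ratio above 0, and 9 of 10 were higher in 4 of 4 experiments, as were 9.92% of all genes (8.88% were lower in 4 of 4). An unadjusted limma p below 0.05 with a higher level was reached by 9 of 10, against 7.79% of all genes, and by 0 of 10 with a lower level, against 8.05%. The median log2 ratio of the 10 genes was 0.83, against -0.05 for all genes. By experiment this median was 0.48, 0.48, 0.31 and 2.02. Without experiment 4 it was 0.45, and 9 of 10 were higher at an unadjusted p of 0.05, against 2.64% of all genes (3.18% of all genes were lower at that mark). Arrays at 1 h lay on 3 slides, with bystander 1 beside controls 1 and 2, bystander 2 beside control 3, and bystanders 3 and 4 beside control 4, and the list medians of bystander against control within them were 0.39, 0.41 and 1.19. These genes are near-identical copies, so a probe of 1 of them may also bind transcripts of the others, and the 10 values are not 10 separate measurements.

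The promoters of these genes are known for metal response elements, the sites of the zinc-sensing transcription factor MTF1, and 3 of them are shown to let this be seen. They are the 200 bases before the start of each gene, on the plus strand, from RefSeq on GRCh38.p14. The positions are chr16:56682270-56682469 for MT1X, chr16:56669614-56669813 for MT1H and chr16:56608384-56608583 for MT2A. Capitals mark each match to the core TGCACNC or TGCGCNC, on either strand.
MT1X: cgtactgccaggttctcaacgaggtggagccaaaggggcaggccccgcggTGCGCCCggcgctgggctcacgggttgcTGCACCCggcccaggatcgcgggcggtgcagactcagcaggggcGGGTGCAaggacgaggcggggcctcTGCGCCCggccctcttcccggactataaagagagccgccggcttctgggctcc
MT1H: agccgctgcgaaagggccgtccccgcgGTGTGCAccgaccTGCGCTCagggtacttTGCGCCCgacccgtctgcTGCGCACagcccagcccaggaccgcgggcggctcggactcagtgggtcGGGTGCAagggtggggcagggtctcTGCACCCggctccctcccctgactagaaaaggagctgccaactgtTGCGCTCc
MT2A: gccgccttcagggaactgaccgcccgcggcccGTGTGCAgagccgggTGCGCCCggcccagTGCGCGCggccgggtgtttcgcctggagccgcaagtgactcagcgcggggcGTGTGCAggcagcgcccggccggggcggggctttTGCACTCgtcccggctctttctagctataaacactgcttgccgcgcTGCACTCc
Within 250 bases before the start, MT1X held 4 matches, MT1H 8, MT2A 7 and MT1B 3, and the zinc exporter gene SLC30A1 held 1. Promoter sequences of MT1A, MT1E, MT1F, MT1G, MT1L and MT1M were not available here and were not examined. At least 1 match was found in 24.7% of 27305 RefSeq promoters of that length, and 3 or more in 1.56%. A match in letters is a description of the sequence and not a measured binding site.

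MT1F had the largest ratio of the family. Its log2 scaled intensity was 7.09, 7.0, 6.96 and 8.32 in bystander 1 to 4 and 5.88, 6.16, 6.45 and 5.28 in control 1 to 4. All 4 bystander arrays were above all 4 control arrays, and control 4 was the lowest of the 8. The mean log2 ratio was 1.40 ± 1.13 (SD, n = 4), with a 95% interval from 0.65 to 2.15 and a limma adjusted p of 0.343, and it was 0.86 without experiment 4 and 0.77 with normexp background correction. MT1M read 12.41, 12.38, 11.66 and 13.87 in the bystander arrays and 11.06, 11.54, 11.36 and 11.47 in the controls, a mean ratio of 1.22 ± 0.90 (SD, n = 4). Here control 4 was within the range of the other controls, and bystander 4 was the array that stood high. The same held for MT1X, with 13.85, 14.28, 14.15 and 15.86 in bystander arrays and 13.40, 13.57, 13.73 and 13.67 in controls. Its mean ratio was 0.94 ± 0.84 (SD, n = 4), and the groups did not overlap. Its ratio was 0.53 without experiment 4, and that of MT1M was 0.83. For 8 of the 10 metallothioneins the bystander and control values did not overlap, whereas this was so for 435 probes overall (1.73%). MT2A, whose brightest probe read between 17.10 and 17.93 and was not saturated, was the exception that missed the p of 0.05 by that probe. The ratios of this probe, 0.36, 0.18, -0.17 and 0.62, gave a mean of 0.25 ± 0.33 (SD, n = 4), with an interval from -0.06 to 0.55, and 0.12 without experiment 4. A second MT2A probe was higher in each experiment, with ratios of 0.42, 0.10, 0.06 and 1.20, and its mean was 0.19 without experiment 4.

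The zinc-related genes beside the metallothioneins showed less. SLC39A8, a zinc importer, had a ratio of 0.65 ± 0.67 (SD, n = 4), and the zinc exporter SLC30A1, a known MTF1 target, had ratios of 0.00, -0.37, 0.35 and 1.77. The latter gave a mean of 0.44 with an interval from -0.18 to 1.05, which crosses 0, and its mean was -0.01 without experiment 4. MTF1 itself was at 0.06 ± 0.39 (SD, n = 4). With experiment 4 left out SLC39A8 was at 0.35 and MTF1 at -0.03.

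**Figure D2:**
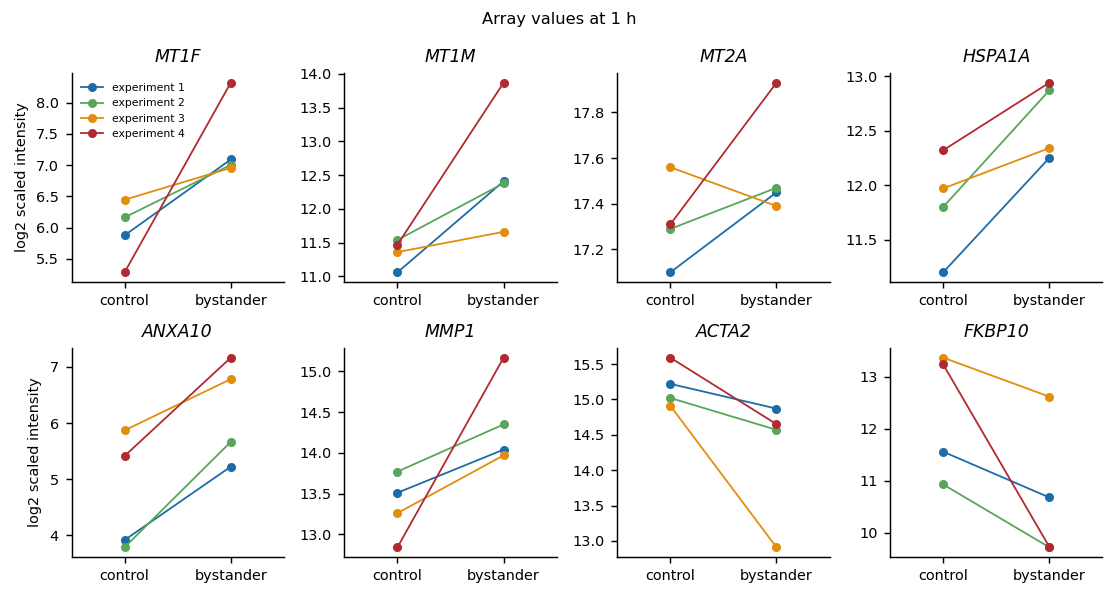
Log2 scaled intensity on the control and bystander arrays of each experiment at 1 h (joined points) for 8 genes, each panel with its own axis. The bystander and control values did not overlap for MT1F, MT1M, MMP1 and ACTA2. By its brightest probe, MT2A was lower in bystander than in control cells in experiment 3 alone.

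Of the heat shock proteins, the chaperones made under HSF1 when proteins unfold, 8 of 26 measured genes were higher at an unadjusted p of 0.05 and 1 was lower, against 7.79% and 8.05% of all genes. The median ratio of the list was 0.18, with 0.09, 0.07, 0.11 and 0.53 in experiments 1 to 4, and 0.10 without experiment 4. HSPA1A, the inducible HSP70, was the highest. Its levels were 12.25, 12.87, 12.34 and 12.94 in bystander arrays and 11.20, 11.80, 11.97 and 12.32 in controls. It was higher in 4 of 4 experiments, least in experiment 3, although control 4 exceeded bystander 1 and the groups therefore overlapped. The mean ratio was 0.78 ± 0.35 (SD, n = 4), with an interval from 0.39 to 1.16, and 0.83 without experiment 4, so this ratio does not rest on that experiment. HSPA1A has a near-identical neighbour, HSPA1B, from which a probe may not separate it. The ratio of HSPH1, a partner of HSP70, was 0.54 ± 0.30 (SD, n = 4), and CHORDC1, DNAJB4 and HSPA4L were at 0.47, 0.51 and 0.50. With experiment 4 left out these 3 were at 0.24, 0.22 and 0.27. The small heat shock protein HSPB1 ran the other way, at -0.61 ± 0.52 (SD, n = 4). Without experiment 4, 2 genes of the list were higher at that mark and 1 was lower, against 2.64% and 3.18% of all genes.
The 200 bases before HSPA1A, chr6:31815343-31815542 on the plus strand, hold 1 match to the heat shock element core GAANNTTC (capitals), a motif found within 250 bases of the start in 5.85% of promoters. Within 250 bases before their starts CHORDC1 held 3 matches, and HSPH1, HSPA4L and DNAJB4 held 0.
HSPA1A: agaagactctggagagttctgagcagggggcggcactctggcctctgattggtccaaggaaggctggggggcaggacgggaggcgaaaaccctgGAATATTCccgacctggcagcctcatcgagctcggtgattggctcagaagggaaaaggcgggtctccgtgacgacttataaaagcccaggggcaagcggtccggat

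Immediate early transcription factors, which need no new protein to be switched on, stood above all genes as a list. Of 26 measured, 13 were higher at an unadjusted p of 0.05 and 0 were lower, against 7.79% and 8.05% of all genes. In 4 of 4 experiments 9 were higher, against 9.92% of all genes, and the median ratio was 0.46. The list medians of 0.04, 0.15, 0.22 and 1.67 show that experiment 4 carried most of this. Without experiment 4 the median was 0.19, and 4 of 26 were higher at that mark, against 2.64% of all genes. FOSB and FOS, subunits of AP-1, stood at 1.10 ± 1.15 and 0.85 ± 0.86 (SD, n = 4). FOS read 12.72, 12.80, 11.72 and 12.51 in bystander arrays and 12.68, 12.49, 10.64 and 10.55 in controls, so controls 3 and 4 were the lowest and bystander 3 was below the other 5 arrays. KLF2, a zinc finger factor of quiescence, had ratios of 0.37, 0.62, 0.31 and 1.89. EGR1, a growth and stress factor, had ratios of 0.27, 0.18, 0.29 and 1.00, and both were thus higher in 4 of 4 experiments. NR4A3, an orphan nuclear receptor, stood at 0.89 ± 0.93 (SD, n = 4). Among the feedback regulators of the same signals, 3 of 24 were higher and 1 was lower (all genes, 7.79% and 8.05%), and DUSP2, a phosphatase of MAP kinases, was at 0.97 by one probe and 0.78 by the brighter one. In experiments 1 to 3 the median of the feedback list was 0.01 with 0 genes at that mark, and the means were 0.65 for FOSB, 0.48 for FOS, 0.43 for KLF2, 0.24 for EGR1, 0.45 for NR4A3 and 0.53 and 0.26 for DUSP2.

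Inflammatory ligands split between experiments. Of 30 listed, 19 were measured above the filter, 5 of them higher and 1 lower at an unadjusted p of 0.05, against 7.79% and 8.05% of all genes, and the median ratio was 0.48. The list medians were 0.01, -0.03, 0.22 and 1.31, and without experiment 4 the median was 0.08, with 3 genes higher and 0 lower, against 2.64% and 3.18% of all genes. CXCL8, the neutrophil chemokine, read 13.29, 13.23, 11.85 and 15.00 in bystander arrays and 13.23, 13.41, 10.65 and 12.26 in controls. Its ratios were 0.07, -0.18, 1.20 and 2.73, so that the groups were close in experiments 1 and 2 and apart in experiments 3 and 4. For CXCL2 the ratio was 1.32 ± 1.27 over 3 experiments, since the spot of experiment 2 was non-uniform. A second CXCL2 probe, complete in all 4 experiments, had ratios of 0.14, 0.02, 0.78 and 2.07, a mean of 0.75. IL6 had ratios of -0.19, -0.02, 0.18 and 2.42. Smaller but more even were IL33, an alarmin, at 0.74 ± 0.55, and TSLP, a cytokine that acts on dendritic cells, at 0.64 ± 0.40 (SD, n = 4), both higher in 4 of 4. CCL11, the eosinophil chemokine eotaxin, had the lowest mean of the list. It read 8.98, 8.65, 6.53 and 6.60 in bystander arrays and 8.96, 9.04, 9.70 and 10.39 in controls. Bystander and control cells were alike in experiments 1 and 2 and far apart in experiments 3 and 4, a mean ratio of -1.83 ± 1.93 (SD, n = 4), and -1.18 without experiment 4. The NF-kB subunits and their feedback genes gave 1 of 24 higher and 1 lower, below the 7.79% and 8.05% of all genes, with NFKBIA, the inhibitor of NF-kB, at 0.32 and BCL3, an atypical member of its family, at -0.43. In experiments 1 to 3 the NF-kB median was 0.02, with 1 gene higher and 0 lower, and the means were 0.36 for CXCL8, 0.60 (experiments 1 and 3) and 0.31 for the CXCL2 probes, -0.01 for IL6 and -0.20 for BCL3.

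In the prostaglandin and junctional signalling list, 1 of 19 was higher and 3 were lower at an unadjusted p of 0.05, against 7.79% and 8.05% of all genes. PTGS2, the inducible cyclooxygenase, had ratios of -0.40, -0.17, 0.96 and 3.15, a mean of 0.88 with an interval from -0.25 to 2.02. PLA2G4A, the phospholipase that frees arachidonic acid, was at 0.74 ± 0.83, and PTGIS, prostacyclin synthase, at -0.76. TGFB3 was at -0.71 ± 0.64 (SD, n = 4), with non-overlapping groups. The list median was 0.07, and -0.05 without experiment 4, when 0 genes were higher and 1 was lower, against 2.64% and 3.18% of all genes. PTGS2 was then at 0.13, PLA2G4A at 0.37, PTGIS at -0.31 and TGFB3 at -0.41.

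Secreted proteases and their inhibitors held several of the highest genes. MMP1, interstitial collagenase, read 14.04, 14.35, 13.97 and 15.17 in bystander arrays and 13.51, 13.77, 13.26 and 12.84 in controls. All bystander arrays were above all controls, by 0.53, 0.58, 0.71 and 2.33, and the mean ratio was 1.04 ± 0.86 (SD, n = 4) or 0.61 without experiment 4. SERPINB2, an inhibitor of plasminogen activators, had ratios of 0.75, 0.87, 0.67 and 2.92, with a mean of 1.30 ± 1.08 and 0.76 without experiment 4. A second, dimmer SERPINB2 probe was less even, with ratios of 0.06, 0.57, 0.93 and 2.74, a mean of 1.075, and 0.52 without experiment 4. TFPI2, another serine protease inhibitor, stood at 0.98 by one probe and 0.40 by another. MMP3, stromelysin, had ratios of -0.07, 0.16, 1.24 and 3.45, which the interval from 0.00 to 2.39 reflects. MMP14, a membrane-bound protease, was at -0.77 ± 0.99 and TIMP3, a tissue inhibitor of metalloproteinases, at -0.50 ± 0.35 (SD, n = 4), the latter with non-overlapping groups. Over the list, 3 of 18 were higher and 4 were lower at an unadjusted p of 0.05, against 7.79% and 8.05% of all genes. The list median was -0.07. Without experiment 4 it was -0.04 and the counts were 2 and 1, against 2.64% and 3.18%, while MMP3 was at 0.44, MMP14 at -0.29 and TFPI2 at 0.46 and 0.16.

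ANXA10, a member of the calcium- and phospholipid-binding annexins, had the highest mean ratio of all genes and the smallest unadjusted limma p, 1.66e-05. Its levels were 5.22, 5.66, 6.78 and 7.17 in bystander arrays and 3.91, 3.78, 5.87 and 5.41 in controls. Levels of both groups were higher in experiments 3 and 4 than in 1 and 2, so that the groups overlapped although the bystander array was the higher in every experiment. The probe was well above background on 4 of 4 bystander arrays but on only 2 of 4 control arrays, not on controls 1 and 2, so the ratios of experiments 1 and 2 are set against controls at or near background. In experiments 3 and 4 the ratios were 0.91 and 1.75. The mean over all 4 was 1.46 ± 0.44 (SD, n = 4), with a 95% interval from 1.02 to 1.91, and 1.37 without experiment 4. With another background correction (normexp with an offset of 50) the ratio was 0.49. Its limma adjusted p was 0.343, and 0.0734 where the spread was estimated without an intensity trend. Within slides ANXA10 was at 1.37, -0.20 and 1.56, of which the -0.20 alone sets a bystander array against the control of another experiment only.

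Other genes among the 15 highest were SLC7A11 and KYNU. SLC7A11, the cystine importer used for glutathione synthesis, had ratios of 0.83, 0.37, 0.66 and 2.58, a mean of 1.11 ± 1.00 (SD, n = 4). KYNU, kynureninase of tryptophan breakdown, read 13.30, 13.54, 14.54 and 13.75 in bystander arrays and 12.62, 12.78, 13.57 and 11.39 in controls. The bystander array was higher in each experiment, by 0.67, 0.76, 0.98 and 2.36, and the mean was 1.19 ± 0.79, or 0.81 without experiment 4. In the NRF2 list, 4 of 22 were higher and 2 were lower at an unadjusted p of 0.05, against 7.79% and 8.05% of all genes. GCLM, a subunit of the enzyme that starts glutathione synthesis, stood at 0.65 ± 0.71 and HMOX1, heme oxygenase, at 0.37 ± 0.25 (SD, n = 4). INHBA, the activin A chain, was at 0.92 ± 0.96 (SD, n = 4). MT1G, a further metallothionein, and SLC16A6, a monocarboxylate carrier, were also among the 15 highest, with 0.95 and 0.97, or 0.74 and 0.89 by their brighter probes. DST, a cytoskeletal linker, was at 1.07 by one probe and between 0.37 and 0.83 by 5 others, and the probe at 0.37, as bright as the first, was higher in 2 experiments and lower in 2. In experiments 1 to 3 the NRF2 median was 0.20 (0.20 in all 4), with 2 genes higher and 1 lower, against 2.64% and 3.18% of all genes. The means there were 0.62 for SLC7A11, 0.30 for GCLM, 0.50 for INHBA, 0.62 and 0.34 for the MT1G probes, 0.45 and 0.31 for those of SLC16A6, 0.67 for the first probe of DST and from -0.07 to 0.51 for the others.

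Of the genes that were lower in 4 of 4 experiments with an unadjusted p below 0.05, the 15 lowest ranged from -1.08 to -1.58, and FKBP10, a chaperone of collagen folding, was the lowest. CCL11, at -1.83, and MYH11, at -1.51, lay in the same range or below it but were lower in only 3 of 4. FKBP10 read 10.68, 9.72, 12.62 and 9.73 in bystander arrays and 11.56, 10.93, 13.37 and 13.24 in controls. Both groups varied by more than the difference in experiments 1 to 3, and the bystander array was the lower in each experiment. The mean ratio was -1.58 ± 1.30 (SD, n = 4), with an interval from -2.47 to -0.70, and -0.94 without experiment 4. Among collagens and the enzymes that modify them, 7 of 29 were lower and 1 was higher at an unadjusted p of 0.05, against 8.05% and 7.79% of all genes, and the median ratio was -0.26. COL5A1 and COL1A1, fibrillar collagen chains, stood at -0.77 ± 0.77 and -0.73 ± 0.71 (SD, n = 4), or -0.46 and -0.51 without experiment 4. The list medians by experiment were -0.24, 0.01, -0.19 and -0.67. Without experiment 4 the list median was -0.12, and 3 genes were lower and 1 higher, against 3.18% and 2.64% of all genes.

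Targets of SRF and YAP, which code for actin, myosin and other parts of the contractile cytoskeleton, gave 10 of 23 lower at an unadjusted p of 0.05 and 0 higher, against 8.05% and 7.79% of all genes, with a median ratio of -0.42. Experiment 3 and not 4 was the lowest, with medians of -0.09, -0.14, -1.03 and -0.47. Without experiment 4, 8 of 23 were lower, against 3.18% of all genes, and the median was -0.46. These values keep experiment 3, so they do not show how far the list rests on it. ACTA2, smooth muscle actin, read 14.87, 14.57, 12.91 and 14.65 in bystander arrays and 15.22, 15.02, 14.91 and 15.59 in controls. The groups did not overlap, bystander 3 was the lowest array, and the ratio was -0.93 ± 0.75 (SD, n = 4), the same without experiment 4. The ACTA2 ratios were -0.352, -0.446, -1.996 and -0.933, so its mean leans most on experiment 3. MYH11, smooth muscle myosin, had ratios of 0.38, -0.58, -3.85 and -2.0, and FHL2, an actin-associated cofactor, was at -0.58 ± 0.47 (SD, n = 4). TAGLN, transgelin, had ratios of -0.63, -0.15, -3.00 and 0.21, with an interval from -1.84 to 0.06. The means of MYH11 and TAGLN also lean most on experiment 3. The beta-actin gene ACTB was lower in 4 of 4 experiments, at -0.41 ± 0.29, and its groups did not overlap. GAPDH was at -0.05 ± 0.13 and HPRT1 at 0.37 ± 0.37 (SD, n = 4), and of 15 reference genes 1 was higher and 3 were lower at an unadjusted p of 0.05, beside the same shares of all genes, or 0 and 1 without experiment 4, when GAPDH was at 0.01 and HPRT1 at 0.19. The median within slides was -0.13, -0.04 and -1.12 for the SRF and YAP list.

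BMP4, a bone morphogenetic protein, read 11.28, 11.17, 10.76 and 10.04 in bystander arrays and 11.62, 11.38, 11.98 and 12.59 in controls. Bystander values were below all controls, by little in experiments 1 and 2 and by 1.22 and 2.56 in experiments 3 and 4, for a mean of -1.08 ± 1.08 (SD, n = 4). Without experiment 4 the BMP4 mean was -0.59. CHRDL2, an extracellular BMP antagonist, had ratios of -0.33, -0.33, -1.40 and -3.08, a mean of -1.28 ± 1.30 (SD, n = 4) that was -0.69 without experiment 4. GDF10, a BMP-related ligand, and RGMA, a BMP co-receptor, stood at -1.15 ± 1.04 and -1.13 ± 0.83, or -0.75 each without experiment 4. The transcription factors OSR1 and NKX3-2 were at -1.22 ± 1.09 and -1.25 ± 0.96, or -0.84 and -0.79 without experiment 4, and C7, a complement component, at -1.29 ± 0.95 (SD, n = 4). DDIT4, an inhibitor of mTORC1 induced by stress, had ratios of -0.18, -0.39, -1.26 and -3.42, a mean of -1.31 ± 1.48 with non-overlapping groups, and -0.61 without experiment 4. FMO2, a monooxygenase of lung, was at -1.38 ± 1.40 and OLFML3, a secreted matrix protein, at -1.10 ± 0.88 (SD, n = 4). The FMO2 ratios were -0.218, -0.314, -3.169 and -1.815, so its mean leans most on experiment 3. AP2B1, an adaptor subunit of clathrin coats, was at -1.28 by one probe and -0.39 by another, and SLC26A1, an anion exchanger, at -1.13 and -0.07. C7 was at -0.75 by its brighter probe, and in experiments 1 to 3 that probe was at -0.42 and the SLC26A1 probes at -0.73 and 0.12. By the brighter GDF10 probe, and by a second probe each of CHRDL2 and OLFML3, levels were lower in only 3 of 4 experiments. Experiment 2 was higher there, at 0.19, 0.06 and 0.10 in that order. The means of these probes were -1.09, -1.19 and -0.93, or -0.74, -0.55 and -0.71 without experiment 4. SPATA2 was at -1.20 by one probe and -0.60 by a brighter one, and TMEM130 was at -1.11. The first SPATA2 probe had ratios of -1.15, -2.87, -0.11 and -0.68, so its mean leans most on experiment 2. TMEM130 had ratios of -0.29, -0.30, -2.27 and -1.58, and its mean leans most on experiment 3.

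**Figure D3:**
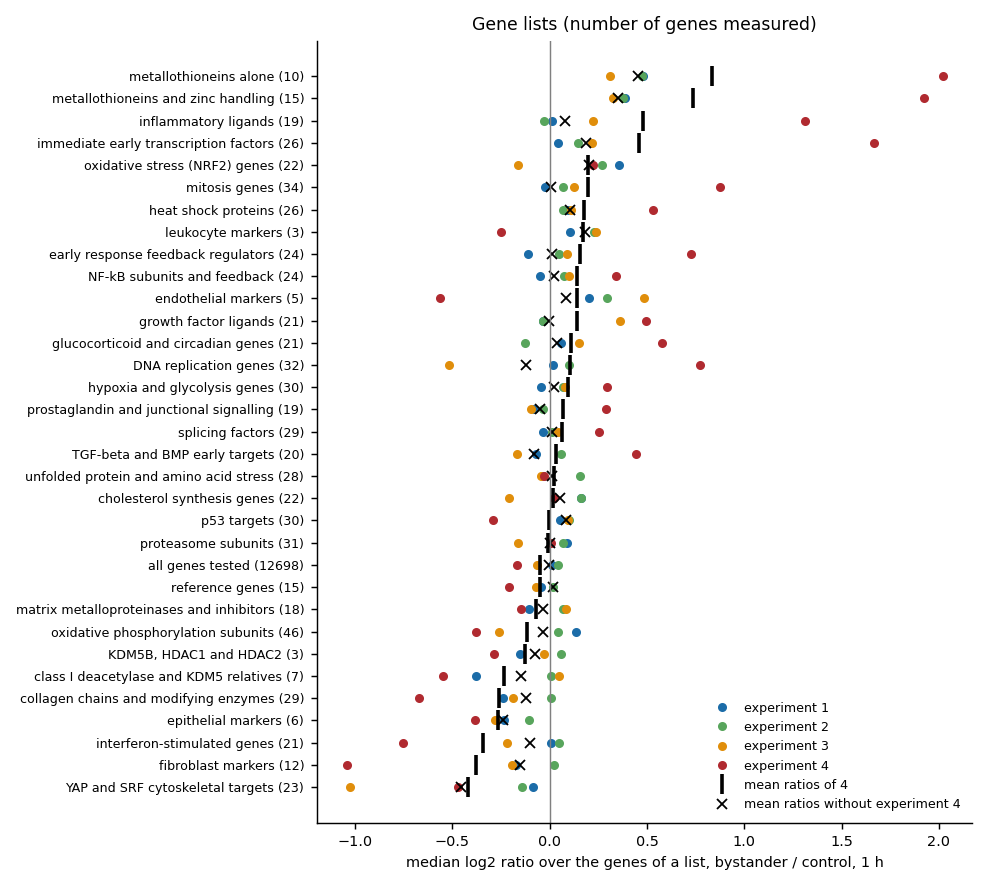
Median log2 ratio of bystander to control over the measured genes of each list in experiments 1 to 4 (coloured points), with the median of the mean ratios over 4 experiments (bars) and without experiment 4 (crosses); numbers of genes are in parentheses. Metallothioneins lay above 0 in every experiment, from 0.31 to 2.02, and the SRF and YAP list lay below 0 in every experiment, from -0.09 to -1.03. Heat shock proteins, from 0.07 to 0.53, and immediate early factors, from 0.04 to 1.67, also lay above 0 in every experiment. Epithelial markers, from -0.11 to -0.39, lay below 0 in every experiment. Most of the other lists stayed near the -0.05 of all genes except in experiment 4.

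Genes that p53 activates after DNA damage lay close to all genes. Of 30 measured, 1 was higher (GADD45A, a stress sensor, 0.44 ± 0.51) and 1 lower at an unadjusted p of 0.05, below the 7.79% and 8.05% of all genes, and the median ratio was 0.00. CDKN1A, the inhibitor of cyclin-dependent kinases, read 13.04, 12.46, 13.90 and 13.87 in bystander arrays and 12.85, 12.29, 14.03 and 13.82 in controls. Levels differed more between experiments than between the groups, and the ratio was 0.07 ± 0.15 (SD, n = 4), with an interval from -0.20 to 0.34. RRM2B, a p53-inducible ribonucleotide reductase subunit, was at 0.63 ± 0.85 and TP53I3, an oxidoreductase, at -0.49 ± 0.83 (SD, n = 4), each with an interval that crosses 0. The chromatin regulators KDM5B, a histone demethylase, and HDAC1 and HDAC2, histone deacetylases, stood at -0.13 ± 0.14, -0.23 ± 0.27 and 0.17 ± 0.34 (SD, n = 4). None of the 3 had an interval that left out 0, and for KDM5B the sign turned, to 0.062, with no scaling between arrays. Its relative KDM5C was at -0.34 ± 0.20 and was lower in 4 of 4 experiments. In experiments 1 to 3 the p53 median was 0.09, with 0 genes at the unadjusted p of 0.05, and the means were 0.19 for GADD45A, 0.33 for RRM2B, -0.11 for TP53I3, -0.08 for KDM5B, -0.13 for HDAC1 and 0.02 for HDAC2.

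Interferon-stimulated genes had 4 of 21 measured genes lower and 2 higher at an unadjusted p of 0.05, against 8.05% and 7.79% of all genes, with a median ratio of -0.34 that was -0.10 without experiment 4. USP18, which restrains interferon signalling, had ratios of 0.06, -0.12, -1.52 and -1.93, and IRF9, a subunit of the factor that drives these genes, stood at -0.79 ± 0.60 (SD, n = 4). RIGI, a sensor of viral RNA, ran the other way at 0.51 ± 0.25 and was higher in 4 of 4. Mitosis genes had 8 of 34 higher and 1 lower, against the same shares of all genes, with list medians of -0.03, 0.07, 0.12 and 0.88. Without experiment 4 their median was 0.01, and 4 of 34 were higher and 0 lower, against 2.64% and 3.18% of all genes. HMMR, a spindle protein, stood at 0.74 ± 0.59 and CDK1, the mitotic kinase, at 0.62 ± 0.65, while KIF20A, a kinesin of cell division, was at -0.34 ± 0.21 (SD, n = 4). Of the unfolded protein list 5 of 28 were higher and 2 were lower, of the hypoxia list 4 of 30 and 1, of TGF-beta targets 2 of 20 and 4, and of proteasome subunits 5 of 31 and 1, all to be read against 7.79% of all genes higher and 8.05% lower. With experiment 4 left out, the same 4 lists had 1 higher and 2 lower, 1 and 1, 0 and 3, and 1 and 1, with medians of 0.01, 0.02, -0.08 and 0.00, and the interferon list had 1 higher and 2 lower. USP18 was then at -0.53, IRF9 at -0.52, HMMR at 0.48 and CDK1 at 0.31. Oxidative phosphorylation subunits gave 0 of 46 higher and 4 lower, the latter close to the share of all genes (8.05%), and 0 and 1 without experiment 4. The remaining lists were growth factors (21 genes), glucocorticoid and circadian genes (21), cholesterol synthesis (22), DNA replication (32) and splicing (29). At most 2 genes of each list were higher and at most 2 were lower, against 7.79% and 8.05% of all genes. Without experiment 4, growth factors had 2 higher and 2 lower, against 2.64% and 3.18% of all genes. In the others at most 1 gene was then higher and at most 1 lower.

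The identity of the cells was looked at through markers. All 12 fibroblast markers were well above background on all 8 arrays. Their median ratio was -0.38, or -0.15 without experiment 4, with THY1, a fibroblast surface protein, at -0.69, PDGFRB at -0.65 and FAP, a fibroblast protease, at 0.50, or -0.40, -0.40 and 0.48 without experiment 4. Of markers of other cells, CDH1 and KRT5 (epithelial), PECAM1 (endothelial), and PTPRC and LYZ (leukocyte) were well above background on 0 of the 8 arrays, and EPCAM was on 7 of 8. Other markers were seen on all 8, namely 7 of 10 epithelial ones (SFTPC among them), 5 of 7 endothelial and 5 of 8 leukocyte ones, and their part in the results was not tested. Those that passed the filter (6, 5 and 3) had median ratios of -0.26, 0.14 and 0.17. Of them, 0 were higher and 1 was lower at an unadjusted p of 0.05, MUC1 at -0.37. This is near the share of all genes (7.79% higher and 8.05% lower). Without experiment 4, 1 was higher and 2 were lower, against 2.64% and 3.18% of all genes. A level on a bulk array cannot tell fewer expressing cells from less RNA per cell.

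Bystander cells were next set directly against the irradiated cells of the same dishes, in the same fit, where control arrays enter the estimate of the spread but not the difference. No probe differed at an adjusted p of 0.1 (0% of 25238), the smallest limma adjusted p was 0.922, and 1247 probes had an unadjusted p below 0.05. Without experiment 4 these were 0.417 and 2790 probes, and in a fit of the 8 bystander and irradiated arrays alone, added after the data were seen, 0.220 and 4830 probes, with 0 calls in both. Irradiated against control cells gave 0 calls as well (0%), with 6791 probes at an unadjusted p below 0.05 and a smallest adjusted p of 0.137. Bystander and irradiated ratios share the 4 control arrays, so their likeness is not a result, and they are only listed side by side. For MT1F the mean ratio to control was 1.40 in bystander and 1.23 in irradiated cells, for MMP1 1.04 and 1.12, for SLC7A11 1.11 and 1.39, for ANXA10 1.46 and 1.43, for FKBP10 -1.58 and -1.77 and for CCL11 -1.83 and -1.51. HSPA1A was at 0.78 in bystander and 0.31 in irradiated cells, a direct difference of 0.46, whereas the p53 targets GADD45A and CDKN1A were at 0.44 and 0.07 in bystander and at 0.87 and 0.43 in irradiated cells. None of these direct differences passed the test.

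Ratios at 1 h were then compared with those at the neighbouring times, each to the control arrays of its own time. At 0.5 h, 1763 probes were called, 1067 up and 696 down, and 991 genes (7.8%) passed, whereas at 2 h 54 probes, 49 up and 5 down, and 39 genes (0.307%) did. Of the 10 metallothioneins, 10 were called at 0.5 h and 8 at 2 h, with list medians of 2.31, 0.83 and 1.06 at 0.5, 1 and 2 h. That a list passed at 0.5 or 2 h and not at 1 h does not show a difference between the times. Tested directly over the 36 arrays of the 3 times, 0 probes differed in their ratio between 1 h and 0.5 h (0%) or between 1 h and 2 h (0%) by limma at an adjusted p of 0.1. At an unadjusted p of 0.05, 701 differed from 0.5 h (467 lower and 234 higher at 1 h) and 431 from 2 h.

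**Figure D4:**
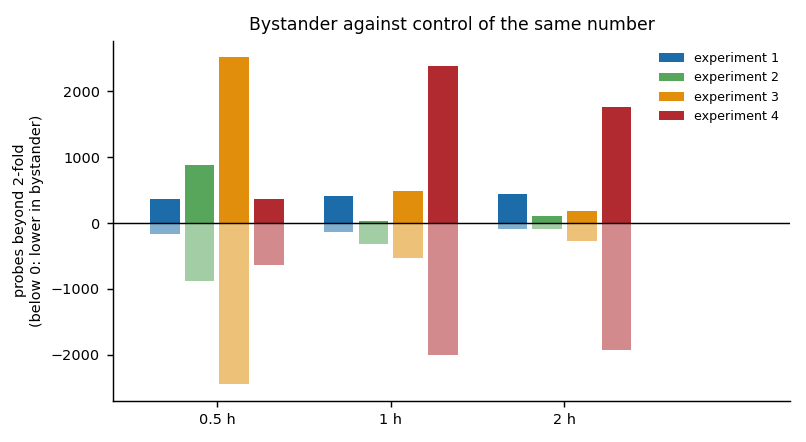
Number of probes with a more than 2-fold higher (upward bars) or lower (downward bars) level in bystander than in control cells, for experiments 1 to 4 at 0.5, 1 and 2 h. The largest counts were in number 3 at 0.5 h, with 4972 probes in both directions together, and in number 4 at 1 h and 2 h, with 4388 and 3701.

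This comparison turned on the arrays numbered 4. With number 4 left out at both times, 231 probes (0.915%) differed between 1 h and 0.5 h. Of these, 218 had the lower ratio at 1 h, and all 218 had been above control at 0.5 h, while 13 had the higher ratio at 1 h and had been below control at 0.5 h. By gene, 145 were lower at 1 h (1.14%) and 7 were higher (0.0551%). With number 4 left out at 1 h alone, 7 probes differed, and with number 3 left out at both times 42 did. Whether the same number at 0.5 and 1 h stands for the same experiment was not assumed.

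Of the 152 genes that differed between the times in numbers 1 to 3, 58 (38.2%) were on one of the lists and 94 were on none. They included 12 of 15 metallothionein and zinc genes, 11 of 19 inflammatory ligands, 6 of 24 NF-kB genes, 6 of 26 heat shock proteins and 4 of 18 proteases and inhibitors, all of them lower at 1 h, as were 1.14% of all genes. IL6 had ratios of 3.16, 3.18 and 2.65 at 0.5 h and -0.19, -0.02 and 0.18 at 1 h. The means of 3.0 and -0.01 differed with a limma adjusted p of 6.93e-05, but in number 4 the order was turned, with -0.32 at 0.5 h and 2.42 at 1 h. For CXCL8 the means over numbers 1 to 3 were 4.40 and 0.36, for PTGS2 3.15 and 0.13, for BIRC3, an inhibitor of apoptosis under NF-kB, 2.43 and 0.14, and for KYNU 2.42 and 0.81. SERPINB2 had ratios of 5.99, 6.06, 3.098 and 0.45 at 0.5 h, against 0.75, 0.87, 0.67 and 2.92 at 1 h. MT1F had 5.28, 5.20, 2.18 and 1.48 at 0.5 h, so the order of the times was the same in numbers 1 to 3 and opposite in number 4. ACTA2, called at 0.5 h with a mean of -1.93, stood at -0.93 at 1 h and -0.31 at 2 h.

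**Figure D5:**
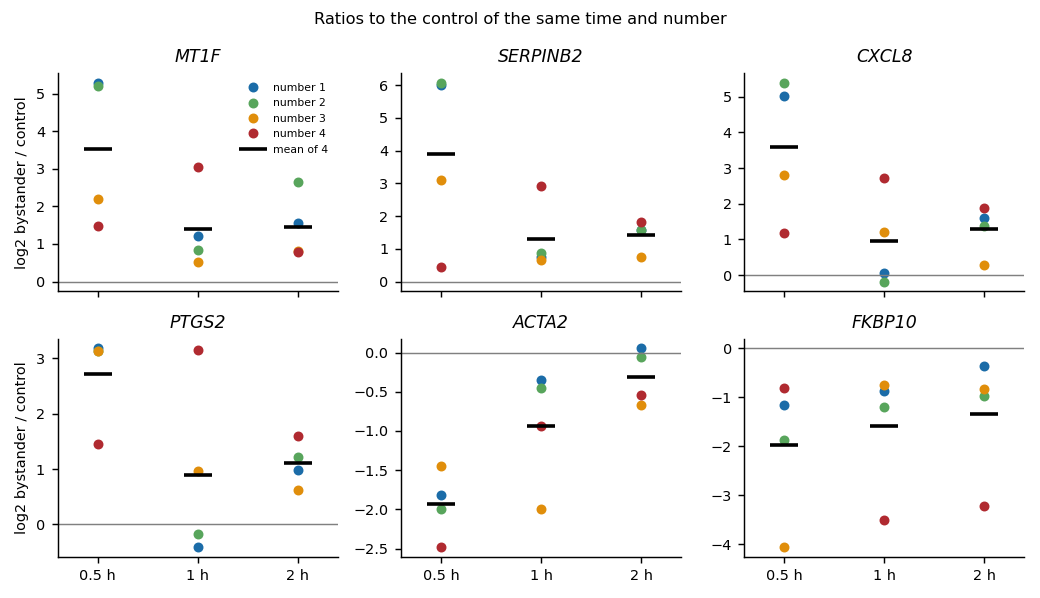
Log2 ratio of bystander to control for 6 genes at 0.5, 1 and 2 h, with a point for each replicate number and a bar for the mean of 4. Numbers 1 to 3 had higher ratios at 0.5 h than at 1 h for MT1F, SERPINB2, CXCL8 and PTGS2, for example 5.99, 6.06 and 3.098 against 0.75, 0.87 and 0.67 for SERPINB2, and number 4 had the opposite order.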

How the data were processed

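The data were 1-colour scanner outputs of Agilent Feature Extraction 9.1.3.1, 1 per array. The deposited values were processed signal intensity, from which the authors' software had subtracted background, with no normalization between arrays. The authors also deposited a table of log2 values, whose scale and centring are not stated and were read by setting it against the scanner values (r of 0.9996 or more with log2 intensity on the 12 arrays at 1 h, and column medians from 8.75 to 9.22). It was used only as an alternative. Each array had 43376 spots for 41000 probes. Control spots were left out, non-uniform spots were set to missing, spots of a probe were averaged, arrays were scaled to the same 75th percentile, a floor of 5 was set on the intensity and log2 was taken. Following the methods, a probe was left out if over 10% of the 72 arrays had it dim or uneven, which kept 25238, and 65 of these lacked 1 or more of the 4 pairs. Symbols were matched to RefSeq by accession for 23680 probes, by symbol for 2802 and by synonym for 1128, and 13390 were unmatched. No per-sample column was left unused (0).

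Treatment was fitted with experiment as a block over the 12 arrays at 1 h in limma 3.58.1 (R 4.3.3), using its intensity trend and the Benjamini-Hochberg method. The methods state that the samples of an experiment were handled together, and after group means were taken off, arrays of the same number correlated above 0.1 in 12 of 12 pairs (median 0.5, and -0.228 for other numbers). Because the means of 4 arrays were taken off, a positive value for the same number pushes that for other numbers below 0. The -0.228 is therefore not a separate reference. Slides were tested as a block. The time points lay on different slides, and only ratios were compared between them. The genes named were the 15 highest and 15 lowest mean ratios with the same sign in 4 of 4 experiments and an unadjusted p below 0.05, which 931 and 846 genes met. Each gene was represented by its probe of largest ratio there, which favours large values, and by its brightest probe in the lists. Beyond these, the 2 members of each list farthest from 0 and 3 chromatin regulators were named, and other members were chosen after their values were seen. The values of 2 genes that these rules name are not reported here. The comparison, the gene lists and these rules were chosen with earlier results of these data known, so no list is independent evidence. Alternatives were other scaling, background correction, filters, blocks and leaving out each experiment. The number of arrays and the signal over background limit the precision.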

Additional observations from a re-analysis of the deposited data

Results flagged for a closer look

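Among 125 values looked at, of the named genes and of the list medians, 16 had 1 experiment far from the other 3, with a gap to the nearest that took up nearly the whole range. Chance gives this in about 1 in 20 values. In 15 of the 16 the distant experiment was number 4, whose control array stood apart. No cause was tested.

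The log2 ratios of bystander to control in experiment 4 were 2.92 for SERPINB2, 2.33 for MMP1, 1.94 for MT1G, 2.19 for MT1X and -3.51 for FKBP10. They were -4.48 for DBP, a circadian transcription factor, 1.24 for HMGCS1, an enzyme of cholesterol synthesis, and 0.93 for HPRT1. For DBP the other experiments gave 0.39, -0.17 and -0.03.

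List medians in experiment 4 were 1.67 for immediate early factors, 0.29 for prostaglandin and junctional signalling, -0.29 for p53 targets, 0.53 for heat shock proteins, 1.92 for metallothioneins with zinc genes, 2.02 for metallothioneins alone and 0.88 for mitosis genes. The unfolded protein list was distant in experiment 2, at 0.16.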

How the results depend on the processing

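At the adjusted p of 0.1, the counts of probes higher or lower in bystander cells at 1 h stayed at 0 under every alternative but 2. With no filter on dim probes 1 probe was higher (LOC283588, log2 ratio 0.49, limma adjusted p 0.094), and with no intensity trend 1 was higher (ANXA10, 1.46) and 1 lower (AA594808, -1.05), each with an adjusted p of 0.0734. Leaving out each experiment in turn gave 0 to 0 calls, and between 1016 and 5222 probes at an unadjusted p of 0.05, the smaller counts being 1016 without experiment 3 and 1395 without experiment 4. For the difference between 1 h and 0.5 h the count was 0 to 231 with 1 experiment left out, 42 without number 3 and 231 without number 4. Against irradiated cells and against 2 h it was 0 throughout.

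Without the replicate block 0 probes were called and 1244 had an unadjusted p below 0.05, against 3622 with it. With the slide as a fixed block 4056 did, with quantile normalization 3481, with normexp 3635 and with the 8 bystander and control arrays alone 1960. The cause of these changes was not tested.

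Of the genes named by rule, the sign turned for DBP, whose values with 1 experiment left out ran from -1.56 to 0.064, for VWF, which ran from -0.49 to 0.055, and for KDM5B, at 0.062 with no scaling. Of the other genes in the text, SLC30A1, IL6, GAPDH, MTF1 and the brighter SLC26A1 probe turned without experiment 4. So did a DST probe, from 0.41 to -0.07. List medians of at most 0.1382 in size turned for 7 lists without experiment 4, for 6 with no scaling and for 13 under any alternative. Among the 7 were DNA replication, from 0.10 to -0.12, and growth factors, from 0.14 to -0.0063. Zinc transporters with MTF1, 5 genes taken alone outside this count, also turned without experiment 4, from 0.20 to -0.03. Of 85 probes of the named genes, 59 moved by more than 1.5 times without experiment 4, 25 with the median of the 4 ratios, 19 with no scaling, 13 with the slide as a fixed block, 11 with normexp, 7 or fewer with another experiment left out and 2 or fewer with the others. Normexp brought FMO2 to -0.92, NKX3-2 to -0.78, SPATA2 to -0.75 and SLC26A1 to -0.74. Altogether 13 list medians moved by more than their spread over experiments, 12 of them with no scaling, where the ratios were higher by a median of 0.191. For the 15762 probes outside the filter, weak signal over background allowed no test.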

Other observations

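Some probes were seen in 1 group alone. Of 41000 probes, 27 (16 with a gene symbol) were well above background on all 4 bystander arrays and on 0 of 4 control arrays, and 2 showed the reverse. They were picked for this pattern, none passed the filter and none was tested, so the values describe these 8 arrays only. Folds are lower bounds, the mean of the group in which a probe was seen over the mean of the higher of its own value and the dimmest detected signal of each array in the other group. CYP7A1, the rate-limiting enzyme of bile acid synthesis, was at least 2.38-fold higher on the bystander arrays, ANKRD26 at least 2.35-fold, ASB5, a substrate adaptor of ubiquitin ligases, at least 2.15-fold, and ARID2, a subunit of a SWI/SNF chromatin remodeller, at least 2.01-fold. ZNF563, a zinc finger protein, was at least 2.96-fold lower and PLB1, a phospholipase, at least 1.80-fold lower.

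Across probes, the bystander to control ratios of experiments 3 and 4 had a correlation of 0.528, those of experiments 1 and 2 one of -0.173, and the other 4 pairs lay between -0.0587 and 0.0703, over 25238 probes each. The ratios of an experiment come from 1 pair of arrays, and the arrays share base composition and signal effects across probes.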
